A study of Homo sapiens with 8 samples.

Results

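The ChIP-seq peaks described here are the dnTCF1EWT peaks at 2 h of induction that hold at least 1 Wnt response element (WRE) and no full Helper site, called WRE-only peaks below. They were chosen by the motif counts that were deposited with each peak, a WRE count of 1 or more and a Helper site count of 0. The peak score was not used. Longer peaks have more room for a WRE and also scored higher, so the choice was not independent of the score. Among WRE-only peaks the median length was 203 bp at scores up to 67 and 569 bp above 400. There were 801 WRE-only peaks among the 5585 peaks of the dnTCF1EWT 2 h list, and the 6 lists of the series hold 23433 peaks in all. Another 110 peaks of the same list held both motifs, 294 held a Helper site without a WRE, and 4380 held neither.

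The cells were DLD-1 colon cancer cells, an established line with high endogenous Wnt signalling. A clonal line carried a doxycycline-inducible, FLAG-tagged dnTCF1EWT and a separate clonal line carried dnTCF1Emut, in which the C-clamp no longer binds DNA. Both were grown with blasticidin and zeocin before induction with 1 ug/mL doxycycline for 2 or 9 h, and untreated cells of each line (0 h) received no doxycycline. Chromatin was precipitated with anti-FLAG beads, and each condition is 1 list of peaks with no spread between replicates. The study's methods state that duplicates were pooled before peak calling, whereas most of the sample descriptions name a first replicate, so it is not certain which libraries stand behind a list. Each protein comes from its own clone and libraries, and a difference between the proteins cannot be told apart from one between clones or libraries. The lists hold no expression values, so the identity of the cells was not checked, and the sequencing depth behind the lists is unknown. The number of peaks ran from 354 to 12996 per list, and peak scores began just above 50 in all 6. Peaks are not replicates, so the values below are counts and medians with no test, and the 95% intervals of percentages cover counting error only.

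TCF1 is a LEF/TCF transcription factor that brings β-catenin to Wnt target genes, and the dominant negative form used here lacks the β-catenin binding domain and represses them. Its HMG box bends and binds the WRE, whereas the C-clamp, a second DNA binding domain of the E-tail isoforms, contacts the GC-rich Helper site. Peaks with a WRE and no full Helper site are therefore those where the sequence offers the HMG box its motif and offers the C-clamp at most the short form of its own. The WRE was searched as 5′-CTTTGWWS-3′, the short Helper site as 5′-RCCG-3′ and the Helper site as 5′-RCCGCC-3′ (W is A or T, S is C or G, R is A or G). A full Helper site always contains a short one, but a WRE-only peak may hold short Helper sites alone.

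Most WRE-only peaks lay far from promoters, and the span of only 5 reached the stretch from 250 bases before to 50 bases after the listed TSS of the nearest gene. For 3 of these genes, SLC7A8, FKBP3 and FAM76B, promoter sequences from RefSeq (GRCh38.p14) were at hand, and 2 of them held a WRE match inside the peak span. These are shown because each peak was deposited with exactly 1 WRE, so the letters show what a counted WRE in a promoter peak looks like. They are written on the strand of the gene, 5′ to 3′, and the capitals mark the WRE, which reads as its reverse complement on this strand.
FKBP3: acccggactCAACAAAGaagccctca
FAM76B: gcggggcagGTTCAAAGcggatttcg

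The FKBP3 stretch is chr14:45134617-45134642 of GRCh38.p14, minus strand, with the first base of the WRE 152 bases upstream of the TSS. The FAM76B stretch is chr11:95789937-95789962 of the same build, minus strand, with the WRE 171 bases upstream. FKBP3 encodes an FK506-binding prolyl isomerase, and its peak had a score of 439, whereas the peak at FAM76B had a score of 54.8. Both peaks held 3 short Helper sites. Of all 35116 promoter sequences of the same length in the table, 2325 (6.62%) held the letters of a WRE on either strand. Such a match is thus not particular to promoters with a peak. The lists use hg19 and the positions of the TSSs may differ between builds. The 4 SLC7A8 promoter sequences held no WRE in the window, while its peak extended beyond it.

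A single WRE was the rule, and peaks with more copies scored higher. Of the 801 peaks, 581 (72.5%) held 1 WRE, 172 (21.5%) held 2 and 48 (5.99%) held 3 or more. The peak score, a MACS value that grows as the P-value of the peak falls, had a median of 85.6 (quartiles 59.7 and 149) with 1 WRE, 155 (92.0 and 274) with 2 and 252 (106 and 447) with 3 or more. Over all WRE-only peaks the median was 101 (63.4 and 177), against 57.4 (53.2 and 67.5) for the other 4784 peaks of the list, most of which held neither motif. Peaks with both motifs had a higher median, 142 (84.0 and 247). The median length was 365 bp for WRE-only peaks and 178 bp for the other peaks. Their scores were not compared at like lengths. WRE-only peaks made up 42 of the 100 highest-scoring peaks and 426 of the top 1000. The ranges of the classes overlapped widely, since the lowest score was 50.3 with 1 copy, 50.04 with 2 and 50.2 with 3 or more, and the highest was 1257, 1382 and 3218.

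Longer peaks offer more room for a motif, and length was greater at higher copy number. The median peak length was 319 bp with 1 WRE, 420 bp with 2 and 528 bp with 3 or more, while the median GC content was 42.2, 42.4 and 42.5%. Up to 250 bp, the median scores were 58.3 with 1 WRE and 59.0 with 2 (197 and 20 peaks), and a single peak held more. Between 250 and 350 bp, the median scores of the 3 classes were 84.2, 93.6 and 94.5 (122, 26 and 8 peaks). Between 350 and 500 bp, they were 148, 158 and 199.7 (185, 81 and 13 peaks), and above 500 bp they were 251, 372 and 414 (77, 45 and 26 peaks). The order by copy number thus held in the 3 bands above 250 bp, with steps of varied size. Among peaks between the length quartiles, 244 and 467 bp, the median score with 3 or more WREs was 1.19 times that with 1. In all WRE-only peaks it was 2.95 times. When copies were divided by length the direction turned, because a short peak with 1 WRE has a high density. Split into 3 sets of 267 peaks by WREs per kb, the densest set had a median score of 64.9 and a median length of 205 bp, and the least dense 163 and 456 bp.

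**Figure D1:**
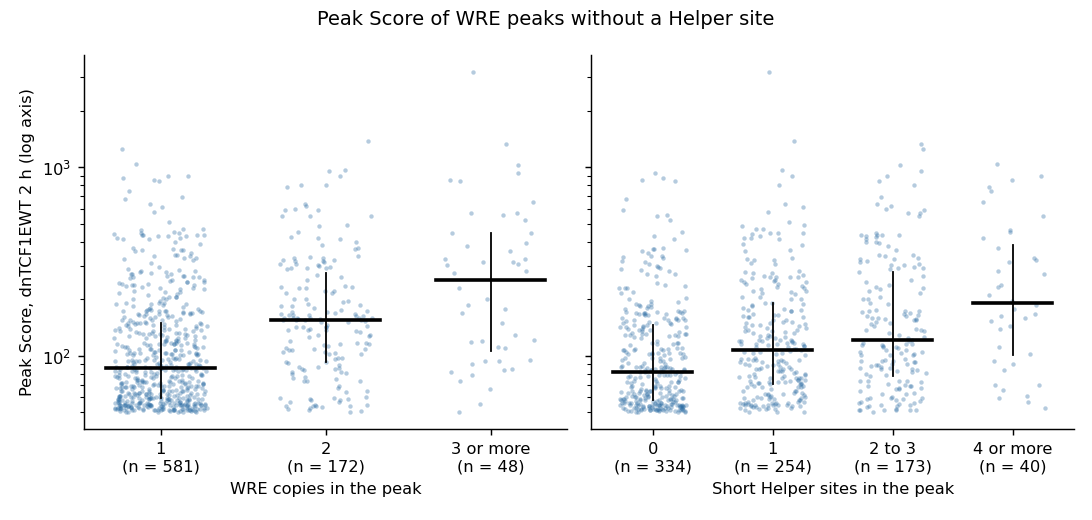
Peak Score of the 801 WRE-only peaks at 2 h of dnTCF1EWT (log axis) by WRE copies (left) and short Helper sites (right), 1 point per peak, with the median as a thick line and the quartiles as a thin line. The medians rise from 85.6 to 252 with WRE copies and from 82.2 to 190 with short Helper sites, and the points of all classes overlap.

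The strongest WRE-only peak was also the strongest peak of the whole list. It lay in intron 10 of NELF, a gene for a factor in the migration of neurons that produce gonadotropin-releasing hormone, at chr9:140344686-140346205 of hg19, and held 6 WREs and 1 short Helper site in 1520 bp. The peak center was annotated as a C-rich low-complexity repeat. GC content was 61.7% in this peak, against a median of 42.25% over all WRE-only peaks. The NELF peak scored 3218 at 2 h and 2003 at 9 h of dnTCF1EWT, and 837 at 2 h and 178 at 9 h of dnTCF1Emut, with no peak in either untreated list. The region was therefore listed in all 4 induced conditions, each time with the higher score at 2 h than at 9 h of the same protein.

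There were 6 WRE-only peaks with 6 or more WREs, a set chosen here after seeing the counts. The peak with 11 copies lay 54322 bp upstream of SIRPA, an inhibitory receptor of myeloid cells, and scored 1321 at 2 h but 55.7 at 9 h of dnTCF1EWT, and 658 at 2 h of dnTCF1Emut. The peak with 10 copies lay 32586 bp upstream of MIR1257 and had no short Helper site. With dnTCF1EWT it scored higher at 9 h (2672) than at 2 h (930.5), unlike the SIRPA peak. With dnTCF1Emut both scored lower at 9 h, 368 against 976 at MIR1257 and 109.8 against 658 at SIRPA. Peaks with 7 copies lay in an LTR22A element in an intron of ZNF638 and upstream of LOC729678, a non-coding RNA gene. The ZNF638 peak scored 395 at 2 h and 925 at 9 h, and 947 with dnTCF1Emut at 2 h. The LOC729678 peak scored 315 and 211, and 297 with dnTCF1Emut. The last, with 6 copies, lay 10467 bp upstream of AKR1E2, an aldo-keto reductase gene, and scored 109 with dnTCF1EWT against 409 with dnTCF1Emut at 2 h. Many copies were thus found at peaks that scored higher with either protein and at either time.

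Among the 10 highest-scoring peaks, the 7 not yet described held fewer copies: 4 had 2 WREs, 2 had 1 and 1 had 3. LTBP2, which encodes a latent TGF-beta binding protein, had a peak of score 1382 in intron 3, with 2 WREs. A peak downstream of the TSS of ATP6AP1L scored 1257 with 1 WRE, and one near PXDN, an extracellular matrix peroxidase, scored 1039 with 1 WRE and 5 short Helper sites. Peaks upstream of ERCC6L2 (1032, 3 WREs), GZMB (969, 2 WREs) and LYZL1 (949.8, 2 WREs) were intergenic, between 39435 and 179148 bp from the TSS. An intronic peak of EFTUD1, a factor in ribosome maturation, scored 899 with 2 WREs. All 10 of these regions were listed again at 9 h of dnTCF1EWT, and 9 of them at 2 h of dnTCF1Emut, with GZMB as the exception. In the class with 3 or more WREs, RAB8B, a small GTPase of vesicle traffic, followed these with a score of 855 and 3 WREs.

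Short Helper sites were present in 467 of the WRE-only peaks. There were 334 peaks with none, 254 with 1, 173 with 2 to 3 and 40 with 4 or more. Median scores were 82.2, 108, 121 and 190 in this order, median lengths 292, 371, 418 and 516 bp, and median GC contents 40.2, 42.6, 44.8 and 46.7%. At like lengths the scores of these classes were close: between 350 and 500 bp the medians were 154, 149, 164 and 176 (99, 104, 62 and 14 peaks). Above 500 bp they were 284, 326, 302 and 329 (35, 39, 53 and 21 peaks). Among the peaks with 4 or more sites, the highest scores belonged to PXDN, to a peak downstream of the TSS of MIR3143 (899, 8 sites), and to peaks near the anion exchanger gene SLC4A3 (854, 6 sites), the urate transporter gene SLC22A11 (789, 4 sites) and the sulfotransferase gene SULT1C4 (749, 6 sites). All but SLC22A11 among these held 1 WRE. Of these 5 peaks, all were listed at 9 h of dnTCF1EWT, with scores from 124 to 271, and PXDN and SLC22A11 were listed at 2 h of dnTCF1Emut, at 223 and 206.

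Recovery was counted as overlap by any base with a peak of another list. At 2 h of dnTCF1Emut, 275 of the 801 WRE-only peaks were recovered (34.3%, 95% interval 31.1 to 37.7%), against 9.44% of all dnTCF1EWT 2 h peaks and 5.27% (4.67 to 5.94%) of the other peaks. At 9 h of dnTCF1EWT, 255 were recovered (31.8%, 28.7 to 35.1%), against 14.9% of all peaks and 12.1% (11.2 to 13.0%) of the others. The dnTCF1Emut 9 h list recovered 52 (6.49%, 4.98 to 8.41%), against 1.75% of all peaks. In untreated cells, 7 WRE-only peaks overlapped a peak of the dnTCF1EWT line (0.874%, where 1.40% of all peaks did) and 5 a peak of the dnTCF1Emut line (0.624%, where 0.286% of all peaks did). At 9 h of dnTCF1EWT the share was not particular to WRE-only peaks, since 50.9% of peaks with both motifs (41.7 to 60.1%) and 34.4% of those with a Helper site and no WRE (29.2 to 39.9%) were recovered there. With dnTCF1Emut at 2 h these classes had 22.7% (15.9 to 31.4%) and 7.14% (4.72 to 10.7%). In all, 417 of the 801 (52.1%) were found in at least 1 of the other 5 lists. The same share was not counted over all dnTCF1EWT 2 h peaks, so this value has no background beside it. The difference between WRE-only and other peaks was 29.1 points at 2 h of dnTCF1Emut (25.8 to 32.5) and 19.8 points at 9 h of dnTCF1EWT (16.5 to 23.2). The overlapping peaks of the dnTCF1Emut 2 h list had their centers a median of 38 bp away, and 262 of the 275 held a WRE and no Helper site by their own counts.

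Since WRE-only peaks scored higher than the rest, they were also set beside other peaks of like score. With scores above 67 and up to 100, 31.2% of 173 WRE-only peaks (24.8 to 38.5%) and 6.40% of 703 other peaks (4.82 to 8.46%) were recovered at 2 h of dnTCF1Emut. From 100 to 200 the shares were 39.6% of 227 and 21.8% of 289, from 200 to 400 they were 60.9% of 110 and 34.6% of 159, and above 400 they were 66.2% of 68 and 52.1% of 73. In the last band the intervals overlapped (54.3 to 76.3% and 40.8 to 63.1%). At 9 h of dnTCF1EWT the pattern was different: the shares were 21.4 and 15.5% from 67 to 100, 31.3 and 35.3% from 100 to 200, 60.0 and 56.0% from 200 to 400, and 85.3 and 89.0% above 400. In each of these 4 bands the intervals of WRE-only and other peaks overlapped at 9 h. Up to a score of 67, 10.3% of 223 WRE-only peaks (6.97 to 15.0%) and 5.98% of 3560 other peaks (5.25 to 6.81%) were found at 9 h. In this lowest band, which holds most of the other peaks, the 9 h intervals did not overlap. At 2 h of dnTCF1Emut its shares were 8.52% (5.52 to 12.9%) and 1.43% (1.09 to 1.88%). At like scores, the excess of WRE-only peaks was thus seen in the dnTCF1Emut list more than in the dnTCF1EWT 9 h list. Above a score of 100, the peaks with a Helper site and no WRE had the lowest recovery at 2 h of dnTCF1Emut, at 9.76% of 41, 14.3% of 42 and 41.7% of 24 in these bands.

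**Figure D2:**
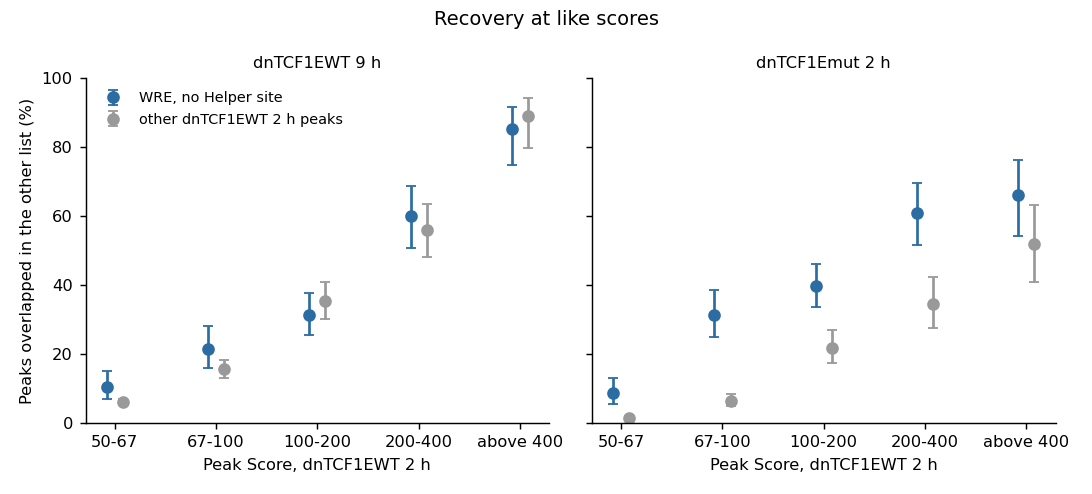
Share of dnTCF1EWT 2 h peaks that overlap a peak of the dnTCF1EWT 9 h list (left) or the dnTCF1Emut 2 h list (right), by Peak Score, for WRE-only peaks (blue) and all other peaks (grey), with Wilson 95% intervals. On the right the blue points lie above the grey points in every band, by 31.2 against 6.40% between 67 and 100, and on the left the points lie close together above a score of 100.

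Recovery was higher with more WRE copies in the lists of both proteins. At 9 h of dnTCF1EWT, 27.2% of peaks with 1 WRE (23.7 to 30.9%), 38.4% with 2 (31.4 to 45.8%) and 64.6% with 3 or more (50.4 to 76.6%) were recovered. At 2 h of dnTCF1Emut the shares were 29.6% (26.0 to 33.4%), 44.2% (37.0 to 51.7%) and 56.2% (42.3 to 69.3%), and at 9 h of dnTCF1Emut they were 4.30, 10.5 and 18.8%. The difference between 3 or more copies and 1 was 37.4 points (22.8 to 49.9) at 9 h of dnTCF1EWT and 26.6 points (12.1 to 40.2) at 2 h of dnTCF1Emut. Among peaks with a length between the quartiles, 244 and 467 bp, it was 28.0 and 10.6 points, with 18 peaks of 3 or more copies. From a score of 100 to 200, recovery at 2 h of dnTCF1Emut was 37.8% of 148, 41.2% of 68 and 54.5% of 11 peaks by copies, intervals that overlapped. Above a score of 200, recovery at 9 h of dnTCF1EWT did not follow the copies, with 71.1% of 97, 60.7% of 56 and 84.0% of 25 peaks.

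By short Helper sites, the dnTCF1EWT 9 h and dnTCF1Emut 2 h lists parted. These differ in both protein and induction time, which cannot be told apart here. The dnTCF1EWT 9 h list recovered 21.0% of peaks without a short Helper site (16.9 to 25.6%), 35.0% with 1 (29.4 to 41.1%), 43.4% with 2 to 3 (36.2 to 50.8%) and 52.5% with 4 or more (37.5 to 67.1%). At 2 h of dnTCF1Emut the shares were 30.8% (26.1 to 36.0%), 40.2% (34.3 to 46.3%), 33.5% (26.9 to 40.8%) and 12 of 40 peaks (18.1 to 45.4%), with no order by count. At 9 h of dnTCF1Emut they were 7.19, 5.91, 6.94 and 2.50%, from 24, 15, 12 and 1 peaks. The difference between 4 or more sites and none was 31.5 points at 9 h of dnTCF1EWT (15.8 to 46.7) and -0.84 points at 2 h of dnTCF1Emut (-13.8 to 15.3). The second interval is wide and does not show that the shares are equal. Its sign turned to 14.3 points among peaks of 40 to 50% GC, where the first difference was 37.2 points, with 21 peaks of 4 or more sites. Between 244 and 467 bp in length, the first difference was 27.25 and the second -16.5 points, with 10 such peaks. Outside repeats they were 25.1 and -17.3 points, with 30 such peaks. Between 2 to 3 sites and none, the difference at 9 h of dnTCF1EWT was 22.4 points, and 11.4 points between 244 and 467 bp. Within the scores of 100 to 200, recovery by 0, 1 and 2 to 3 sites was 23.1, 32.4 and 43.1% at 9 h of dnTCF1EWT, and 48.4, 40.5 and 27.5% at 2 h of dnTCF1Emut (91, 74 and 51 peaks). The 11 peaks with 4 or more sites went against the first order, with 36.4 and 18.2%. Other scores did not show the same orders throughout: up to 100, the dnTCF1Emut shares were 14.5, 25.2 and 19.4%, and above 200 the dnTCF1EWT 9 h shares were 58.1, 73.8, 74.5 and 68.4% for 0, 1, 2 to 3 and 4 or more. GC content and length moved with the short Helper count, and their part in these shares was not tested beyond these restrictions.

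**Figure D3:**
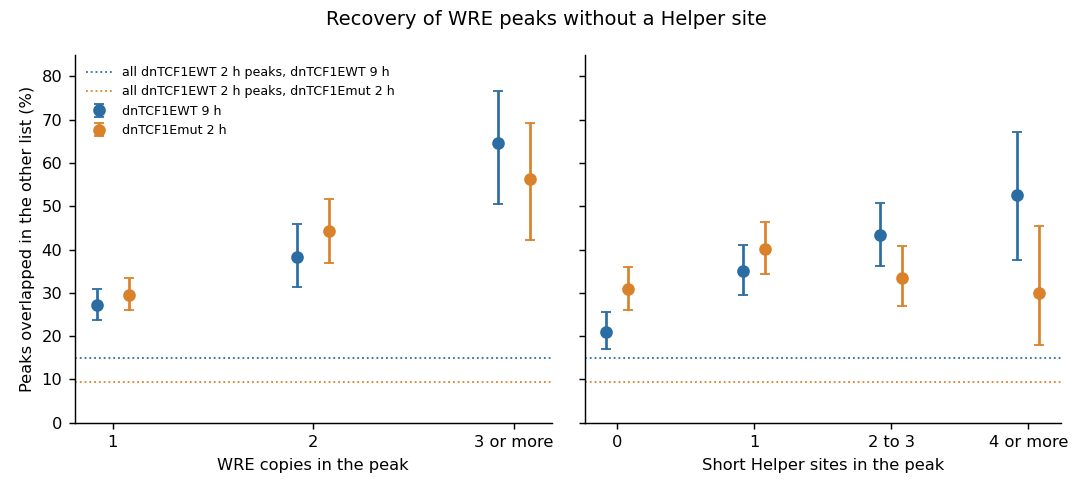
Share of WRE-only peaks that overlap a peak of the dnTCF1EWT 9 h list (blue) or the dnTCF1Emut 2 h list (orange), by WRE copies (left) and short Helper sites (right), with Wilson 95% intervals. Dotted lines give the shares of all 5585 peaks, 14.9 and 9.44%. Both colours rise from 1 to 3 or more WREs, whereas with short Helper sites the blue points rise from 21.0 to 52.5% and the orange points do not, with 30.8% at 0 and 33.5% at 2 to 3.

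Taking both lists at once, 391 WRE-only peaks (48.8%) were in neither the dnTCF1EWT 9 h nor the dnTCF1Emut 2 h list, 135 (16.9%) were in the first only, 155 (19.4%) in the second only and 120 (15.0%) in both. This split was counted for WRE-only peaks alone, so it does not show whether other peaks of the list divide in the same way. Median scores were 68.6, 133, 124 and 297 in the order given. The sets found in 1 list had the same median length, 401 bp, and a similar share with 2 or more WREs, 28.1 and 28.4%. The median GC content was 43.9% in the peaks found again at 9 h of dnTCF1EWT only, and 39.5% in those found with dnTCF1Emut only. A short Helper site was present in 69.6% of the former and 52.3% of the latter. Peaks in both lists held 2 or more WREs in 49.2% of cases, against 20.2% of those in neither. Their median lengths also differed, 519 bp against 275 bp, and the part of length in this contrast was not tested.

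At the 275 regions listed with both proteins at 2 h, the score was more often higher with dnTCF1EWT. The median score was 160.5 with dnTCF1EWT and 121 with dnTCF1Emut, the median log2 ratio was 0.48 (quartiles -0.22 and 1.18), and 181 regions (65.8%) had the higher dnTCF1EWT score. For the 252 shared regions outside the WRE-only set the median log2 ratio was 0.40 and 61.1% were higher with dnTCF1EWT, and for the 25 shared peaks with both motifs these values were 1.46 and 84.0%. By WRE copies the median log2 ratio was 0.30 at 172 regions with 1, 0.93 at 76 with 2 and 0.74 at 27 with 3 or more. The dnTCF1Emut scores had medians of 125, 102 and 122 in these classes, with no order, while the dnTCF1EWT scores had medians of 133, 204 and 315. By short Helper sites the median log2 ratio was 0.31 with 0 (103 regions), 0.48 with 1 (102), 0.69 with 2 to 3 (58) and 0.93 with 4 or more (12). The regions that scored higher with dnTCF1EWT made up 57.3, 63.7, 77.6 and 100% of these classes. Scores are not scaled between libraries, so the level of these ratios depends on a depth that is unknown. Both motifs were counted within the dnTCF1EWT 2 h peak, and median peak length was greater at higher counts of either motif. The ratios by class were not compared at like lengths, and the part of length in them was not tested.

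**Figure D4:**
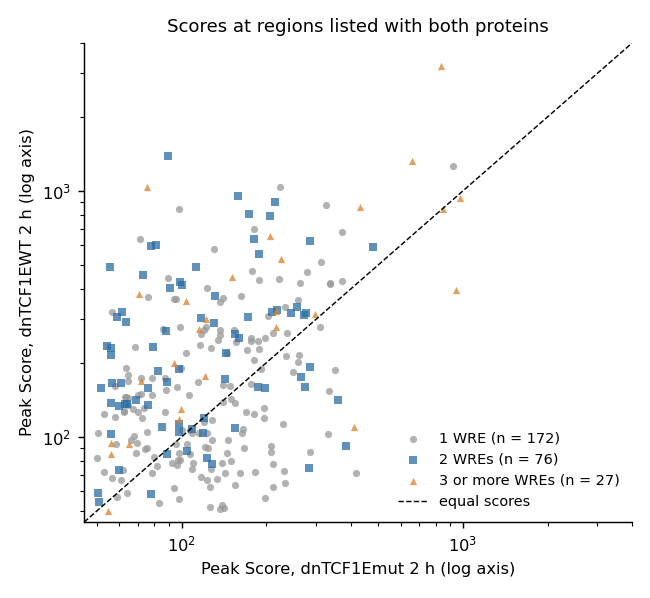
Peak Score with dnTCF1EWT against dnTCF1Emut at 2 h (both log axes) for the 275 WRE-only regions listed with both proteins, by WRE copies, with a dashed line at equal scores. Of the regions with 2 WREs 77.6% lie above the line, and of those with 1 WRE 58.1%.

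The regions at the ends of this range were strong with 1 protein. The highest log2 ratios were 3.96 at LTBP2 (1382 against 89.1), 3.77 at ERCC6L2 (1032 against 75.5), 3.17 at SQRDL, a mitochondrial sulfide oxidase gene (639 against 71.0), 3.15 at LOC284661 (492 against 55.4) and 3.11 at COL4A2, a basement membrane collagen gene (844 against 97.8). These 5 peaks held 1 to 3 WREs and 1 to 3 short Helper sites, and each was listed again at 9 h of dnTCF1EWT and not at 9 h of dnTCF1Emut. The lowest were -2.55 at CYP26B1, which encodes a retinoic acid hydroxylase (71.4 against 418), -2.06 at AUTS2 (92.1 against 383), -1.92 at MSI2, an RNA-binding protein of stem cells (74.8 against 284), -1.90 at AKR1E2, and -1.84 at SEMA3A, a secreted semaphorin (65.0 against 233). These held at most 1 short Helper site each, and 3 of the 5, CYP26B1, AUTS2 and AKR1E2, remained listed at 9 h of dnTCF1Emut, with scores from 52.9 to 158.

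From 2 to 9 h of dnTCF1EWT, scores at shared regions were mostly lower. At the 255 regions the median log2 ratio of the 2 h to the 9 h score was 0.76 (quartiles 0.12 and 1.71). Of these regions, 203 (79.6%) scored higher at 2 h. For the 578 shared regions outside the WRE-only set the median was 0.16 and 60.2% scored higher at 2 h. Over all 833 shared regions these values were 0.33 and 66.15%. Here too the scores are not scaled between libraries, and the depth is unknown. The median rank percentile within the list was 91.8 at 2 h and 95.6 at 9 h, but the lists hold 5585 and 12996 peaks, and a longer list places the same region at a higher percentile. By WRE copies the median log2 ratios were 0.73, 1.04 and 0.96, and by short Helper sites 0.48, 0.76, 0.79 and 1.25. These were not compared at like lengths either. The highest 9 h scores were at MIR1257 (2672), NELF (2003), ZNF638 (925), SYK (730) and GZMB (705). At SYK, which encodes a tyrosine kinase of immune receptors, the peak held 3 WREs and scored 149 at 2 h and 730 at 9 h, and no dnTCF1Emut peak was listed there.

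In the untreated lists, 12 WRE-only peaks were found, none of them in both. A repeat element lay at the peak center of 9 of the 12. The same held for 40.7% of all WRE-only peaks and 78.7% of the other dnTCF1EWT 2 h peaks. The highest untreated scores were at 2 peaks with NSFP1, a pseudogene, as nearest gene, both 521 bp long and named here after their values were seen. The first was annotated in an intron of a non-coding transcript and the second in an intron of a protein-coding one. In the dnTCF1Emut line these 2 peaks scored 132 and 122 untreated. At 2 h they scored lower, 115 and 107 with dnTCF1EWT and 120.2 and 107 with dnTCF1Emut. These peaks of equal length and like scores may lie in copies of the same sequence that share reads, so their values are uncertain. Ranked by the 2 h score of dnTCF1EWT, the highest of the 12 were CXADR, ZNF638 and LRRN2. The peak 11337 bp upstream of CXADR, an adhesion protein that serves as a virus receptor, held 3 WREs and scored 845 at 2 h of dnTCF1EWT, 851 at 2 h of dnTCF1Emut and 109 in untreated cells of the dnTCF1Emut line. ZNF638 scored 67.3 in that list and LRRN2 64.1, against 395 and 161 at 2 h of dnTCF1EWT. All 3 were absent from the untreated dnTCF1EWT list.

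Only 36 of the 801 peaks (4.49%, 3.26 to 6.16%) had their center within 2 kb of a TSS, against 6.21% (5.56 to 6.93%) of the other peaks. Within 30 kb there were 298 (37.2%, 33.9 to 40.6%), against 45.5% (44.1 to 46.9%) of the other peaks. The median distance was 52027 bp, against 35909 bp for the other peaks. Of the WRE-only peaks, 451 were intergenic, 321 intronic, and 9 had the promoter-TSS annotation. The share near a TSS showed no order by WRE copies, with 4.48, 4.07 and 6.25% within 2 kb for 1, 2 and 3 or more copies. By short Helper sites it was higher with more: 2.69, 3.54, 6.94 and 15.0% lay within 2 kb with 0, 1, 2 to 3 and 4 or more, although the last is 6 of 40 peaks (7.06 to 29.1%). Within 30 kb the shares were 33.2, 37.0, 41.6 and 52.5%. In peaks that hold a full Helper site and a WRE the share within 2 kb was 24.5% (17.4 to 33.4%).

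The highest-scoring peaks within 2 kb of a TSS were those at SLC7A8, an amino acid transporter (614, centered 497 bp upstream), FKBP3 (439, 221 bp upstream), DISC1, a scaffold protein of neuronal development (438, 1544 bp downstream), LOC729678 (315), SMAD7, an inhibitor of TGF-beta signalling (268, 1573 bp upstream of the nearest listed TSS and inside an intron), ARPC2, a subunit of the actin-nucleating Arp2/3 complex (265), LOC100505782 (201) and SEMA3C, a secreted semaphorin (184, 863 bp upstream). In the dnTCF1EWT 9 h list, SLC7A8 scored 125, FKBP3 207, DISC1 50.9 and ARPC2 99.1. With dnTCF1Emut at 2 h no peak was listed at SLC7A8, FKBP3, LOC100505782 or SEMA3C, while DISC1 scored 222, SMAD7 88.1 and ARPC2 211. The last 2 of the 8 were in none of the other lists.

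WRE-only peaks differed from the rest of the list in the repeats beneath them. By the annotation at the peak center, 59.3% lay outside any repeat (55.9 to 62.6%), against 21.3% (20.1 to 22.4%) of the other peaks. SINEs, mostly short Alu elements in the human genome, held 7.37% of WRE-only peaks (5.75 to 9.39%) and 56.6% of the others (55.2 to 58.0%). LTR elements held 15.9 and 11.1% and LINEs 14.5 and 7.53%. Outside repeats the WRE-only peaks had a median score of 129, in LTRs 76.0, in LINEs 64.1 and in SINEs 61.7. The dnTCF1Emut 2 h list recovered 190 of the 475 outside repeats (35.7 to 44.5%), 29.1% of those in LTRs (21.9 to 37.6%), 22.4% in LINEs (15.8 to 30.8%) and 13 of the 59 in SINEs (13.3 to 34.1%). In the dnTCF1EWT 9 h list, LTRs were recovered in 39.4% (31.3 to 48.1%), outside repeats in 36.6% (32.4 to 41.1%) and LINEs in 12.9% (7.99 to 20.2%).

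Some repeat families held several WRE-only peaks each, and those named here were picked after seeing the counts. MER11A, a long terminal repeat of an ERVK retrovirus family, held 21 of them out of 37 peaks of the list. These had scores from 50.2 to 381, 2.05 WREs on average and up to 4, and 14 of the 21 were recovered at 9 h of dnTCF1EWT and 14 at 2 h of dnTCF1Emut. The related MER11C held 7, of which 4 were recovered at 9 h of dnTCF1EWT and none at 2 h of dnTCF1Emut, and LTR13A held 7, with 2 and 1 recovered. MIRb, an ancient SINE, held 11, with 4 and 6 recovered. None of the 9 peaks in L1PA3, the 9 in L1PA5 or the 6 in L1PA4, young LINE elements, was recovered in either list. Their median scores were low, at 54.8, 55.1 and 53.9. Of all WRE-only peaks with scores up to 67, only 10.3% were recovered at 9 h of dnTCF1EWT and 8.52% at 2 h of dnTCF1Emut. The L1 families L1PA10, L1PA8 and L1PB1 held 6 each, with 2 and 1, 0 and 3, and 0 and 0 recovered in these lists. Copies of a repeat share their sequence, so the peaks of a family are not independent, and reads from near-identical copies may have been placed at any of them.

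**Figure D5:**
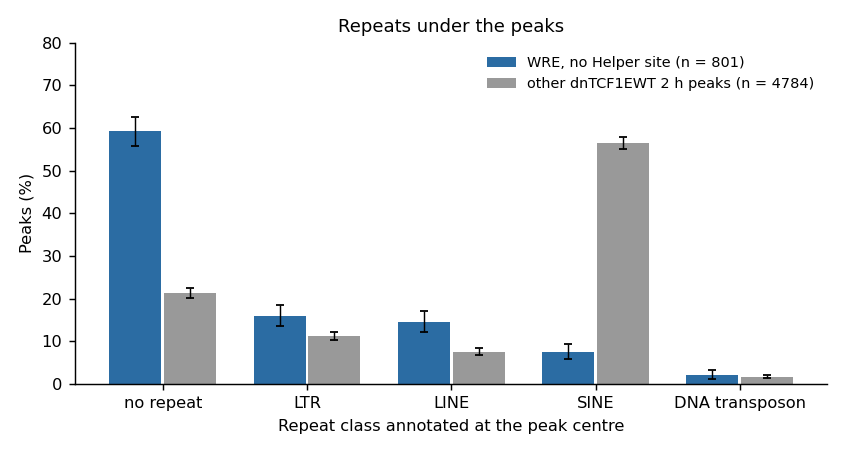
Share of peaks by the repeat class annotated at the peak center, for the 801 WRE-only peaks (blue) and the other 4784 dnTCF1EWT 2 h peaks (grey), with Wilson 95% intervals. SINEs hold 7.37% of the blue and 56.6% of the grey peaks, and 59.3 and 21.3% lie outside repeats.

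The 801 peaks had 736 distinct nearest genes, 79.0% of the peaks with a protein-coding one. Of all 4295 genes nearest to a dnTCF1EWT 2 h peak, this is 17.1%. Most genes, 674, had 1 WRE-only peak, 59 had 2 and 3 had 3. RORA, a nuclear receptor, had peaks of 527, 149 and 64.5 between 11643 and 287527 bp from a TSS, the first with 4 WREs. RUNX2, the Runt factor of bone formation, had 127, 106 and 52.6, none of them in another list. RNU5F-1, a spliceosomal RNA gene, had 135, 115 and 112, all upstream. LYZL1 and CXADR each had 2, the second ones at 372 and 263.

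Among 6 gene lists with 175 genes in all, 81 genes were nearest to any dnTCF1EWT 2 h peak and 20 of those (24.7%) to a WRE-only peak, beside 17.1% of all nearest genes. The Wnt feedback regulators, the inhibitors that Wnt signalling induces against itself, contributed 7 of their 15 genes with a peak. AXIN2, the scaffold of the β-catenin destruction complex, had 2 peaks. The one 127448 bp downstream of its TSS held 5 WREs and scored 449.6 at 2 h and 231 at 9 h of dnTCF1EWT, and the one 4234 bp downstream, in intron 2, held 1 WRE and scored 327 and 264. Neither had a dnTCF1Emut peak. DKK1, a secreted antagonist of the LRP5/6 co-receptors, had peaks of 174 and 173, both downstream, of which the second scored 71.8 with dnTCF1Emut at 2 h and neither was listed at 9 h of dnTCF1EWT. NKD1, which binds Dishevelled, scored 143 at 2 h and 60.5 at 9 h of dnTCF1EWT with 2 WREs and 4 short Helper sites, and had no dnTCF1Emut peak.

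The other feedback genes were TNFRSF19, a receptor of the TNF family (155, in the 5′ UTR with 2 WREs), WIF1, a secreted Wnt inhibitor (86.0), DKK3 (77.3) and RNF43, the ubiquitin ligase that removes Frizzled receptors (55.9). TNFRSF19 and RNF43 were in none of the other lists. With dnTCF1Emut at 2 h, WIF1 scored 97.7 and DKK3 128, both above their dnTCF1EWT scores. None of these 4 was listed at 9 h of dnTCF1EWT.

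The BMP and TGF-beta pathway also had 7 of its 17 genes with a peak. The receptor gene TGFBR2 scored 202 (378512 bp upstream), the ligand genes TGFB3 73.9, BMP2 68.8 and BMP4 71.0 and 54.6, the signal transducer SMAD3 152, and ID2, a BMP-induced inhibitor of bHLH factors, 159 and 111. With dnTCF1Emut at 2 h, TGFBR2 scored 259, TGFB3 108, BMP2 117 and the stronger BMP4 peak 161, all higher than with dnTCF1EWT, and all of these peaks held 1 WRE and no short Helper site. At ID2 the stronger peak scored 96.1 with dnTCF1Emut at 2 h and 223 at 9 h of dnTCF1EWT, and at SMAD3, with 4 short Helper sites, no dnTCF1Emut peak was listed. For SMAD7 the values are given above.

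The other 4 lists had few genes. Of the TCF/LEF factors and their coregulators, CTNNB1, which encodes β-catenin, scored 455 in a peak 225439 bp from its TSS that lies in an intron of another gene, with 72.9 for dnTCF1Emut at 2 h, and TLE1, a Groucho corepressor, had peaks of 514 and 148 at 686278 and 541437 bp from its TSS. The first TLE1 peak scored 314 with dnTCF1Emut. Of the growth and cell cycle targets, RHOB, a small GTPase, had peaks of 151 and 136 and MYCN 80.8. Of the Wnt ligands, receptors and transducers, 19 were nearest to any dnTCF1EWT 2 h peak. Among these only GSK3B, the kinase that marks β-catenin for destruction, was nearest to a WRE-only peak (50.4, in a MER11A element). Of 16 crypt genes nearest to any peak, only PHLDA1 (101) was nearest to a WRE-only peak. GSK3B and PHLDA1 were in none of the other lists. The nearest gene is given by distance alone, and the lists hold no contact or expression data.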

How the data were processed

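ChIP-seq peaks were taken from 6 lists, 1 per condition. According to the submitters' processing notes, CASAVA 1.8.2, Bowtie2 2.0.0, MACS 1.3 and HOMER 3.16 were used with hg19, and by the methods the authors pooled the replicates before peak calling, although most sample descriptions name a first replicate. The deposited peak score is the MACS score, which grows with depth. The authors' file headers describe GC content as the fraction of G and C, shown here in percent. The motif counts, distances to the nearest TSS and annotations were used as deposited by the authors. The separate peak position files repeat these positions and were not used, nor were the input libraries.

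WRE-only peaks were set beside all peaks of the list by counts, medians, Wilson intervals and Newcombe's intervals of differences. The highest-scoring overlapping peak gave the score in another list. The overlap and interval steps were tested on simulated data. Named peaks were the 10 highest-scoring, the 5 highest with 3 or more WREs and with 4 or more short Helper sites, the 8 highest within 2 kb of a TSS, the 5 highest and lowest score ratios, the 5 highest at 9 h, the 3 highest 2 h scores among those in an untreated list, the 5 genes with most peaks and all genes of the gene lists. The peaks, lists and rules were chosen with earlier results of these data known. The sequences of the peaks were not analysed here because hg19 was not at hand. Alternatives changed the overlap, scores, lengths, GC content, TSS window and scale, and peaks in repeats were left out as an addition made after seeing the data. Versions were pandas 2.3.3 and NumPy 2.4.6 under Python 3.11.15, SciPy 1.17.1 for the intervals and matplotlib 3.10.9 for the plots.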

Additional observations from a re-analysis of the deposited data

How the results depend on the processing

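Of 76 alternative values, 41 stayed within the interval of the reported value (for gene counts, within 1.5 times), 29 moved and 6 turned in direction. The causes were not tested, except where an alternative counts fewer or stronger peaks. Recovery at 9 h of dnTCF1EWT was 24.5% with 50% overlap of both peaks, 23.7% with other-list peaks above a score of 67, 40.1% for WRE-only peaks above 67, 47.4% in the top 1000 and 36.6% outside repeats. At 2 h of dnTCF1Emut these were 29.6, 28.7, 44.3 and 49.3%, and 40% outside repeats. At 9 h of dnTCF1Emut it was 3.87% with other-list peaks above 67, 8.48% for WRE-only peaks above 67 and 9.86% in the top 1000. In untreated dnTCF1EWT cells it was 0.25% with other-list peaks above 67, and 0% in the top 1000 and 0% outside repeats. Among peaks of middle length, the difference in recovery between 3 or more WREs and 1 at 2 h of dnTCF1Emut was 10.6 points, and that between 2 to 3 short Helper sites and none at 9 h of dnTCF1EWT 11.4 points. The difference between 4 or more short Helper sites and none at 2 h of dnTCF1Emut was 5.45 points with 50% overlap, 14.3 at 40 to 50% GC, -16.5 at middle length and -17.3 outside repeats, and that between 2 to 3 and none, 2.69 as reported, was -11.8 at middle length and -5.86 outside repeats. The median score with 3 or more WREs was 2.95 times that with 1, but 1.19 times at middle length, and 0.399 times for the densest against the least dense of 3 sets by WREs per kb. For 4 or more short Helper sites against none it was 2.31 times, and 1.23 at middle length, with 10 peaks. Within 1 kb of a TSS were 2.62% of peaks, and 1.12% had the promoter-TSS annotation. By rank percentile, dnTCF1EWT at 2 h was higher than dnTCF1Emut by 13.8 points and lower than at 9 h by a difference of -0.50 points, but percentiles also depend on the list lengths (5585, 1883 and 12996 peaks). With 50% overlap the median log2 ratio of the 2 h to the 9 h score was 0.60. Within 100 kb of a TSS, the TCF/LEF list had 0 genes and the BMP and TGF-beta list 4, and above a score of 67 the list of Wnt ligands and receptors had 0. No paired analysis was possible because each condition is 1 pooled list.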
